A study of Mus musculus with 6 samples.

Results

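The integrated stress response targets described here are 10 genes that rise when the transcription factor ATF4 is made, as under mitochondrial stress or a lack of amino acids. They are *Atf4*, *Atf5*, *Ddit3*, *Trib3*, *Chac1*, *Asns*, *Phgdh*, *Psat1*, *Sesn2* and *Gdf15*. They were found by symbol among the 54532 genes of the deposited table of whole kidney RNA, through the Ensembl identifiers of GENCODE release M21. *Ddit3* has a second identifier in that release, with 0 reads in every library, so the 10 genes take 11 rows of the table. No threshold on the measured values was used to choose them, but they were chosen with earlier results of these data known.

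The study compared kidneys that overexpress adiponectin, a hormone mostly made by adipocytes, with kidneys that do not. Controls were KsprtTA mice, in which the Ksp promoter drives the doxycycline-dependent activator rtTA in the epithelium of the tubules, proximal tubule and collecting duct included. KSPAPN mice carried KsprtTA and also TRE-Adiponectin, a transgene that rtTA switches on. Both groups therefore carried KsprtTA and ate chow with doxycycline at 600 mg/kg for 4 days, although the genotype tag of the Control samples reads WT. Each group had 3 libraries, each made from a pool of 3 mice, so replicate error here is that of pools and not of single mice. The age of these mice was not found in the labels or the methods. The labels name kidney as the tissue, and their extraction text speaks of liver.

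The libraries held between 17183358 and 20871173 reads on genes, and Control replicate 3 was the shallowest. Mitochondrially encoded genes took between 7.69% and 12.3% of the reads. *Adipoq*, which encodes adiponectin, had at most 2 reads in a Control library and at least 17483 in a KSPAPN library, and so fitted the labels. Summed markers of the proximal tubule, the main reabsorbing epithelium of the kidney, came to between 18845 and 24526 CPM (reads scaled to library size, with TMM factors). None of the marker lists for proximal tubule, distal nephron and podocytes had a gene at 0 in all libraries. Control replicate 3 stood apart from the other 5 libraries in several of the integrated stress response targets, and each result on them is therefore given with and without it.

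The integrated stress response begins with kinases that phosphorylate the initiation factor eIF2alpha. General protein synthesis then falls, while the mRNA of *Atf4*, which carries upstream open reading frames, is translated more. ATF4 protein binds with C/EBP partners at C/EBP-ATF response elements and raises genes for amino acid synthesis and transport, tRNA charging and the control of cell death. Since ATF4 is controlled largely at translation, the level of *Atf4* mRNA does not report the level of the protein, which was not measured in these libraries. In kidney, the response is known from tubular cells under mitochondrial and endoplasmic reticulum (ER) stress.

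The response element, spelled TGATGNAA, was looked for on both strands of RefSeq promoter windows of 300 bases, from 250 bases before to 50 bases after each annotated start (GRCm38.p6). All 10 genes matched, with 13 windows. The element was found in 3 of the 10 genes, *Chac1*, *Trib3* and *Asns*. Of all 27025 genes with a window 1219 held it, or 4.51%, and of all 32851 windows 1304 did, or 3.97%. The search was made after the values in the libraries were seen. The stretches around these 3 elements are shown because these genes, with *Atf5*, had the largest excess of the 10 in Control replicate 3, and that of *Fgf21*, a further ATF4 target described with them, is shown beside them. The sequences run 5′ to 3′ along the gene, and capitals mark the element.
Chac1: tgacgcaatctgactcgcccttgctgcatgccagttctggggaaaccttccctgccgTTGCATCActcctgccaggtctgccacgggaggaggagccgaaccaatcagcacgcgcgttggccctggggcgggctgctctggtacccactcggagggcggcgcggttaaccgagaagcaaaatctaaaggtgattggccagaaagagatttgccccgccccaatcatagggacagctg
Fgf21: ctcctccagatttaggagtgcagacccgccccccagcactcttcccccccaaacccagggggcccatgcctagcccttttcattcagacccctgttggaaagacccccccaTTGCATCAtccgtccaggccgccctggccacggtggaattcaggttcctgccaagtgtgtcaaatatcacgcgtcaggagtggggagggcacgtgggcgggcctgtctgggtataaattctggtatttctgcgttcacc
Trib3: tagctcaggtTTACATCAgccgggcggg
Asns: cccagccacaTGATGAAActtcccgcac

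The *Chac1* stretch lies at chr2:119350992-119351228 on the plus strand, and its element spans bases -193 to -186 from the RefSeq start. The *Fgf21* stretch lies at chr7:45615491-45615740 on the minus strand, with the element at -139 to -132. Both hold the same 8 letters, read from the strand opposite to the gene. The *Trib3* stretch lies at chr2:152344029-152344056 on the minus strand, with the element at 15 to 22 after the RefSeq start, also on the opposite strand. GENCODE places the start of *Trib3* at 152344032, so by that annotation the element is upstream of the gene. The *Asns* stretch lies at chr6:7693215-7693242 on the minus strand, with the element on the strand of the gene at -23 to -16 from the RefSeq start. GENCODE starts *Asns* at 7693254, so by that annotation the element begins at base 23 of the gene. A match says only that these letters are present, and the absence of a match in the other 7 genes covers only these windows.

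Levels differed widely among the 10 genes. In FPKM, a level per length of transcript averaged over the 6 libraries, *Atf4* was the highest at 45.0 and stood above each of the other 9 in every library. *Sesn2* followed at 16.0, then *Atf5* at 11.9, *Psat1* at 9.78, *Phgdh* at 9.27, *Ddit3* at 7.56 and *Gdf15* at 3.23. *Asns* at 1.59, *Chac1* at 0.958 and *Trib3* at 0.766 were the lowest. Apart from *Atf4*, neighbours in this order overlapped in their library values in every case but 1, since each library of *Ddit3* was above each library of *Gdf15*. The overlaps of *Sesn2* with *Atf5* and of *Gdf15* with *Asns* came from Control replicate 3 alone. Outside it *Atf5* was at 6.86 to 9.20 FPKM and *Asns* at 0.651 to 1.27 FPKM. The averages of *Atf5*, *Asns*, *Chac1* and *Trib3*, and so their places in the order, include its high values. All 10 genes passed the filter on low counts.

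Between the groups, none of the 10 genes was called at an adjusted p under 0.05 in edgeR, where 2.65% of the 16017 genes tested were called (0.393% higher and 2.25% lower in KSPAPN). Adjusted p ranged from 0.245 to 0.978. At an unadjusted p under 0.05, 2 of the 10 were lower, *Atf5* and *Chac1*, and 0 were higher, where 11.2% of all genes tested were lower and 7.52% higher. DESeq2 also called 0 after adjustment (6.52% of genes) and 1 before it, *Chac1* (9.31% of genes), while limma on log2(FPKM + 1) gave 0 before and after adjustment (17.8% and 0.799% of genes), as did limma on log2(FPKM + 0.1) (17.8% and 0.743%). The 2 groups overlapped in all 10 genes, while they did not overlap in 24.5% of all genes tested. The median log2 fold change of the 10 was -0.26, beside 0.012 for all genes tested, with 9 below 0 and 1 above. Without Control replicate 3, 6 were below 0 and 4 above, the median was -0.05, and edgeR called 0 of the 10 before or after adjustment, where it called 16.6% and 1.91% of all genes. Without the filter on low counts, 4 of the 10 were called lower, *Atf5*, *Asns*, *Trib3* and *Chac1*, where 3.53% of the 29418 genes with a read were. All 4 had their highest level in Control replicate 3, and this fit was not run without that library. The log2 fold change of *Atf5* was -1.04 with and without the filter, while its SE went from 0.45 to 0.15. In whole kidney, fewer cells of a type and less RNA per cell cannot be told apart.

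**Figure D1:**
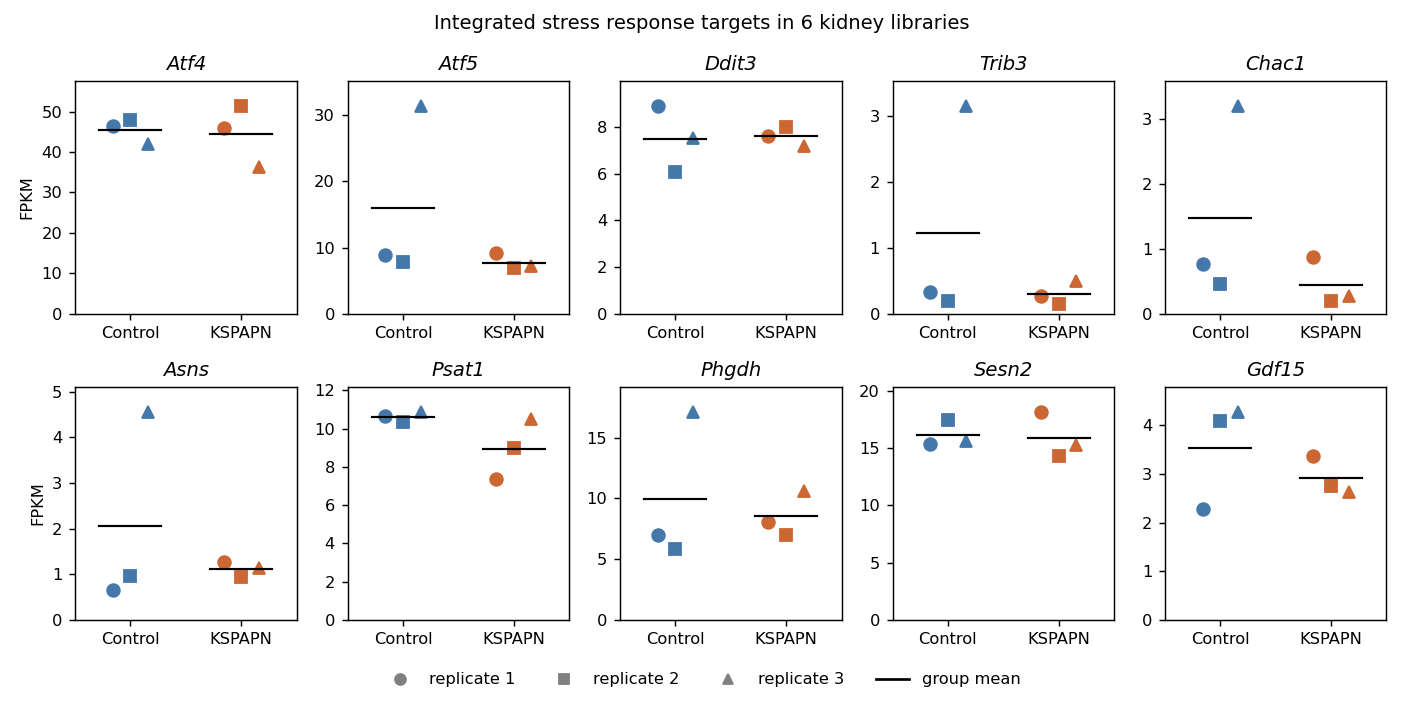
Level of each of the 10 genes in FPKM (vertical axis, from 0, a scale of its own in each panel) in the 3 Control and 3 KSPAPN libraries. Each symbol is a library and the bar is the group mean. Control replicate 3 (triangle) is far above the other 5 libraries for *Atf5*, *Trib3*, *Chac1* and *Asns*, and less so for *Phgdh*, while *Atf4*, *Ddit3*, *Psat1*, *Sesn2* and *Gdf15* do not show this.

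Of the transcription factors, *Atf4* (ENSMUSG00000042406, chromosome 15 of GRCm38 from 80255184 to 80257541) was at 46.5, 47.9 and 41.9 FPKM in the Control libraries and at 45.9, 51.4 and 36.2 in the KSPAPN libraries. Replicate 3 was the lowest of each group, and the group means of 45.4 ± 3.16 and 44.5 ± 7.69 FPKM (SD, n = 3) were within the spread of either. The log2 fold change was -0.03 (95% interval -0.30 to 0.25, adjusted p = 0.938 from edgeR).

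*Ddit3* (ENSMUSG00000025408, chromosome 10 from 127290774 to 127296288) encodes CHOP, a factor that promotes cell death in prolonged stress. It was at 8.91, 6.06 and 7.54 FPKM in Control and at 7.62, 8.02 and 7.21 FPKM in KSPAPN. The KSPAPN libraries lay within the range of the Controls, with a log2 fold change of 0.03 (95% interval -0.34 to 0.39). *Ddit3* overlaps *Mars* on the opposite strand at its end, and whether the counting used strand was not given.

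*Atf5* (ENSMUSG00000038539, chromosome 7 from 44812256 to 44816658) encodes a relative of ATF4 that is also made under stress and takes part in the mitochondrial branch of the response. Its 3 Control libraries were at 8.83, 7.75 and 31.4 FPKM and its KSPAPN libraries at 9.20, 6.86 and 7.14 FPKM. The first 2 Controls and all 3 KSPAPN libraries lay together, and Control replicate 3, with 1100 reads, was 3.37 times the next library in CPM (95% exact interval of the ratio 3.01 to 3.77, covering the error of counting alone). Between the groups the log2 fold change was -1.04 (SE 0.45, unadjusted p = 0.0412, adjusted p = 0.245 from edgeR) and -0.09 without Control replicate 3 (95% interval -0.49 to 0.31). *Atf5* overlaps *Nup62* on the opposite strand. *Nup62* had 298 reads in Control replicate 3 and between 292 and 442 in the other 5 libraries, so it did not rise there with *Atf5*.

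Of the targets that act back on the response, *Trib3* (ENSMUSG00000032715, chromosome 2 from 152337422 to 152344032) encodes a pseudokinase that restrains ATF4 and the kinase AKT. It had 13, 7 and 118 reads in the Control libraries and 13, 6 and 22 in the KSPAPN libraries, which gave 0.330, 0.190, 3.16, 0.263, 0.154 and 0.500 FPKM in that order. Control replicate 3 was 6.33 times the next library, KSPAPN replicate 3 (95% exact interval 3.99 to 10.5), and 20.6 times the lowest. The log2 fold change between the groups was -1.98 (SE 0.91, unadjusted p = 0.0543, adjusted p = 0.279 from edgeR), and it was 0.24 without Control replicate 3 (95% interval -1.16 to 1.65). At 6 to 22 reads in 5 of the libraries, a difference between the groups outside Control replicate 3 could not be told at this depth.

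*Chac1* (ENSMUSG00000027313, chromosome 2 from 119351229 to 119354381) encodes an enzyme that breaks down glutathione. Controls had 23, 13 and 92 reads on it and KSPAPN libraries 33, 6 and 9, or 0.758, 0.458 and 3.20 against 0.865, 0.201 and 0.265 FPKM. Control replicate 3 was 3.64 times the next library (95% exact interval 2.42 to 5.60), and the groups overlapped because KSPAPN replicate 1 exceeded the other 2 Controls. The log2 fold change was -1.67 (SE 0.75, unadjusted p = 0.0485, adjusted p = 0.264 from edgeR) and -0.41 without Control replicate 3 (95% interval -1.87 to 1.04).

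Among the enzymes of amino acid synthesis, *Asns* (ENSMUSG00000029752, chromosome 6 from 7675169 to 7693254) makes asparagine. It was at 0.651, 0.970 and 4.56 FPKM in Control and at 1.27, 0.940 and 1.13 FPKM in KSPAPN, from 33, 46, 219, 81, 47 and 64 reads. Control replicate 3 was 3.53 times the next library (95% exact interval 2.73 to 4.62), while Control replicate 1 lay below all 3 KSPAPN libraries and Control replicate 2 within their range. The log2 fold change of -0.87 (adjusted p = 0.466 from edgeR) turned to 0.47 without Control replicate 3 (95% interval -0.26 to 1.21).

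*Phgdh* (ENSMUSG00000053398, chromosome 3 from 98313170 to 98339990) catalyses the first step of serine synthesis. It was at 6.97, 5.82 and 17.1 FPKM in Control and at 8.05, 7.02 and 10.6 FPKM in KSPAPN. Control replicate 3 was again the highest, 1.61 times KSPAPN replicate 3 (95% exact interval 1.44 to 1.80), and the other 2 Controls were the lowest of the 6 libraries. Accordingly, the log2 fold change went from -0.21 (95% interval -0.98 to 0.55) to 0.43 without Control replicate 3 (95% interval -0.01 to 0.87, unadjusted p = 0.0550, adjusted p = 0.314 from edgeR). 

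*Psat1* (ENSMUSG00000024640, chromosome 19 from 15904678 to 15947337), which acts next in the same pathway, did not follow it. It was at 10.7, 10.3 and 10.9 FPKM in Control and at 7.37, 9.0 and 10.5 FPKM in KSPAPN. The Controls lay close together and KSPAPN replicate 3 among them, with a log2 fold change of -0.24 (95% interval -0.51 to 0.03, unadjusted p = 0.0770, adjusted p = 0.328 from edgeR). Without Control replicate 3 it was -0.22.

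The last 2 genes are raised by p53 as well as by ATF4. *Sesn2* (ENSMUSG00000028893, chromosome 4 from 132492032 to 132510501) encodes a leucine sensor that restrains the growth kinase mTORC1. It was at 15.3, 17.4 and 15.6 FPKM in Control and at 18.1, 14.3 and 15.3 FPKM in KSPAPN, with a log2 fold change of -0.01 (95% interval -0.26 to 0.24). *Gdf15* (ENSMUSG00000038508, chromosome 8 from 70629393 to 70632456) encodes a hormone released by stressed cells that lowers food intake. It was at 2.27, 4.08 and 4.27 FPKM in Control and at 3.36, 2.75 and 2.63 FPKM in KSPAPN. The KSPAPN libraries fell between the Control values, and the log2 fold change was -0.27 (95% interval -0.84 to 0.30).

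**Figure D2:**
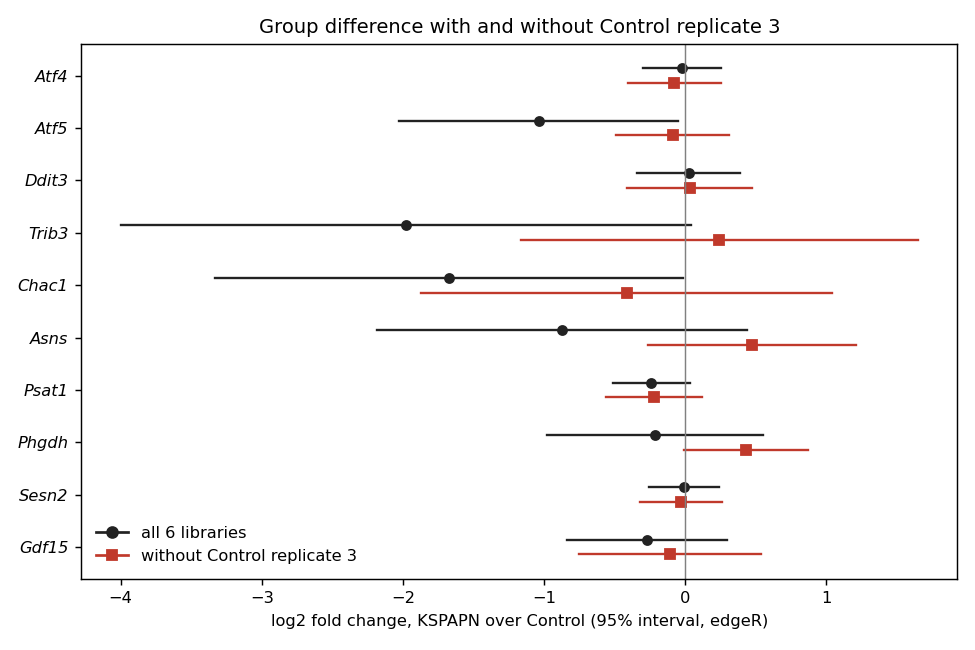
Log2 fold change of KSPAPN over Control for each of the 10 genes (horizontal axis), with its 95% interval from edgeR, fitted on all 6 libraries (circles) and without Control replicate 3 (squares). Without that library *Asns*, *Trib3* and *Phgdh* move from below to above 0, *Atf5* moves from -1.04 to -0.09, and the other genes except *Chac1* change little.

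Control replicate 3 was the highest of the 6 libraries in 7 of the 10 genes, beside 11.0% of all genes tested. It was at least 2-fold above the next library in 4 of the 10, *Trib3*, *Chac1*, *Asns* and *Atf5*, beside 0.106% of all genes tested. No other library exceeded the next by 2-fold in any of the 10. Over all genes tested Control replicate 3 did so in 17 and the other libraries in 6 to 25 each, so the number of such genes was within the range of the other libraries. The summed level of the 10 genes was 360 CPM in Control replicate 3 and between 253 and 278 CPM in the other 5.

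The 17 genes, which were named after their values were seen, had 12 protein-coding members. Beside the 4 targets these were *Gc*, *Adm2*, *Rbp4*, *Gm6614*, *Ube2ql1*, *G0s2*, *1500015O10Rik* and *Sema5b*. *Adm2*, a peptide hormone of the adrenomedullin family that ATF4 is known to raise, had 82 reads in Control replicate 3 and 13 to 26 in the others, 3.12 times the next library. Its log2 fold change between the groups was -1.65 (adjusted p = 0.123 from edgeR), and DESeq2 called it lower (adjusted p = 0.0387). Without Control replicate 3 it was -0.85 (adjusted p = 0.373 from edgeR). *Gc*, the vitamin D-binding protein that liver secretes, had 1872 reads in Control replicate 3 and 221 to 503 in the others. *Rbp4*, which carries retinol in blood, had 37 reads there and 8 to 13 in the others. *G0s2*, an inhibitor of triglyceride breakdown, was the only one of the 17 called between the groups in edgeR (log2 fold change -1.41, adjusted p = 0.0297), and its log2 fold change was -0.95 without Control replicate 3 (adjusted p = 0.0304).

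*Fgf21* encodes a hormone that ATF4 raises in liver and other tissues under mitochondrial stress, and it did not pass the filter on low counts. Control replicate 3 had 72 reads, KSPAPN replicate 1 had 1 read and the other 4 libraries had 0. Against the limit of 3 reads that a count of 0 allows in each of those 4 libraries, the level in Control replicate 3 was at least 23.8-fold higher. Its FPKM was 4.31 in Control replicate 3 and 0.0451 in KSPAPN replicate 1. *Fgf21* thus had reads in the same library in which *Trib3*, *Chac1*, *Asns* and *Atf5* were high, and next to none elsewhere.

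**Figure D3:**
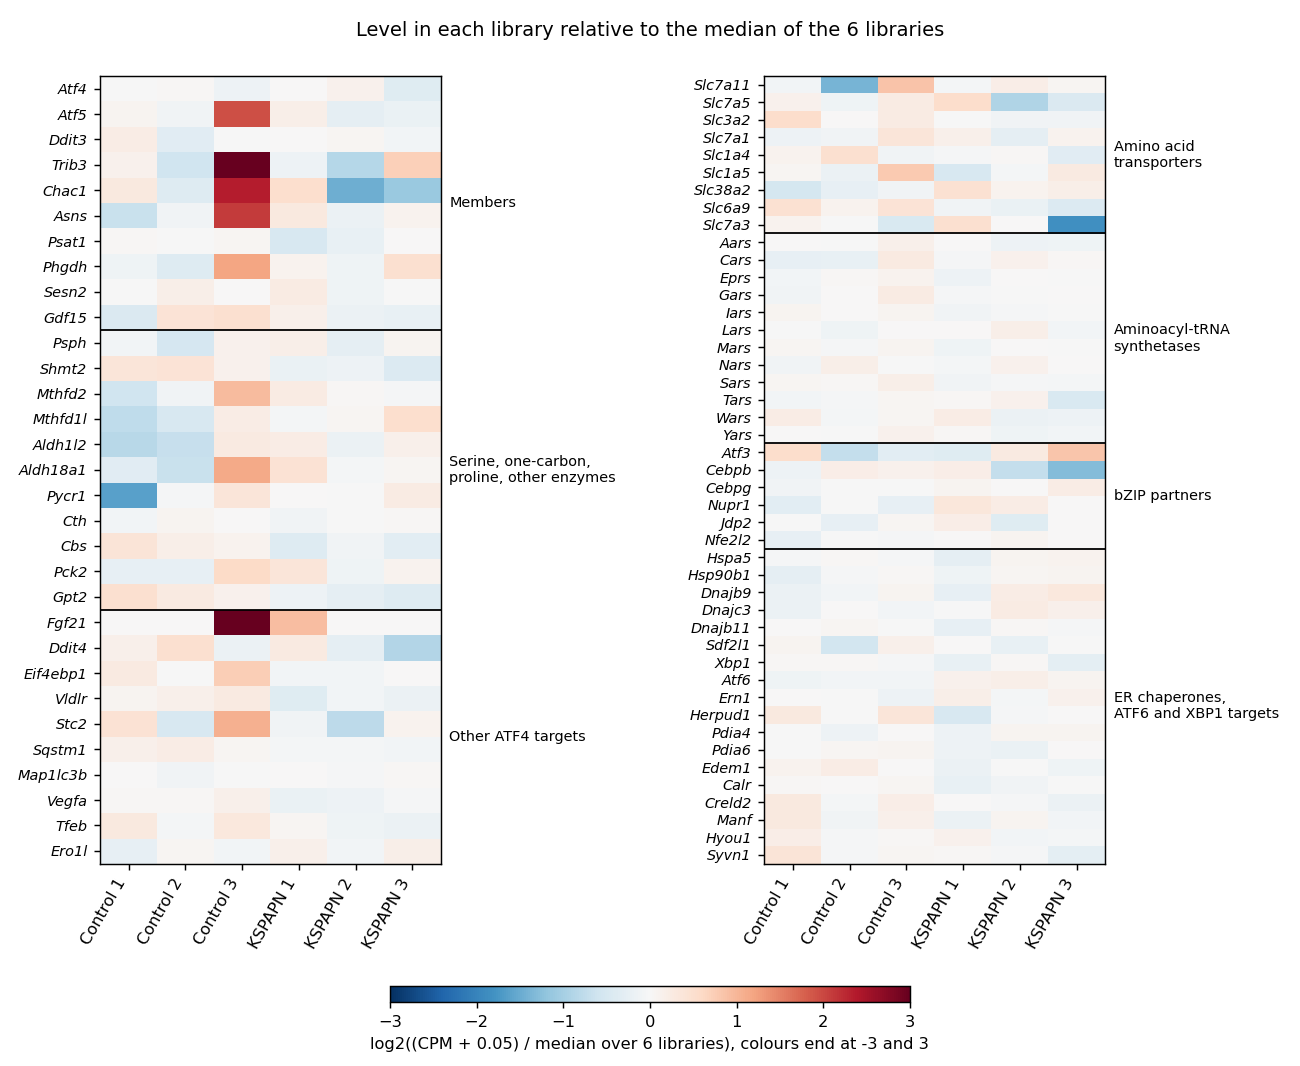
Level of each gene (rows) in each library (columns) relative to its median over the 6 libraries, as log2 of CPM plus 0.05, for the 10 genes (Members) and other ATF4 targets, partner factors and ER genes. Red is above and blue below the median, and colours end at -3 and 3. The column of Control replicate 3 is red for *Atf5*, *Trib3*, *Chac1*, *Asns* and *Fgf21*, fainter for genes such as *Phgdh*, *Mthfd2*, *Aldh18a1* and *Stc2*, and near white for the ER genes.

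Other genes of the pathway were read from lists of known roles. In Control replicate 3, the 12 cytosolic aminoacyl-tRNA synthetases that ATF4 raises, which charge tRNAs with amino acids, summed to 904 CPM, above the 799 to 842 CPM of the other libraries. That library was the highest in 7 of the 12, by at most 1.17 times the next (*Gars*). It was the highest in 5 of 11 serine, one-carbon, proline and related enzymes, with *Mthfd2* and *Aldh18a1* both at 1.65 times the next library, but their sum of 861 CPM lay within the 677 to 923 CPM of the others. It was also the highest in 5 of 9 other ATF4 targets tested, led by *Stc2* at 1.55 times the next. The 10 genes of that list summed to 1284 CPM there, within the 1125 to 1301 CPM of the others. The 9 amino acid transporters summed to 379 CPM there, above the 322 to 373 CPM of the others, and of the 8 tested it was the highest in 2, *Slc1a5* at 1.43 times and *Slc7a1* at 1.15 times the next. Control replicate 3 was the highest in 0 of 6 genes listed as partner or related factors of ATF4, such as *Atf3* and *Cebpb*. Of 10 mitochondrial relay and chaperone genes it was the highest in 1. Of 10 p53 targets it was the highest in 4, or 40.0%, beside 11.0% of all genes tested. These p53 targets summed to 506 CPM there, within the 408 to 580 CPM of the others. Of 17 genes of the eIF2 kinases, eIF2, eIF2B and eIF2alpha phosphatase it was the highest in 3. Of 18 ER chaperones and ATF6 or XBP1 targets it was the highest in 4, or 22.2%, beside 11.0% of all genes tested. These 18 summed to 3353 CPM there, above the 2861 to 3289 CPM of the others. *Hspa5*, the main ER chaperone, was not among the 4.

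Markers of cell types in Control replicate 3 stayed within the range of the other 5 libraries. The 12 proximal tubule markers summed to 21211 CPM there and to 18845 to 24526 CPM in the others. The 8 hepatocyte markers summed to 1120 CPM, within 645 to 1739, the 7 fibroblast and smooth muscle markers to 264 CPM, within 136 to 329, and the 7 adipocyte markers to 61.2 CPM, within 56.6 to 78.1. The 12 distal nephron markers, at 5604 CPM, the 6 podocyte markers, at 340 CPM, the 6 endothelial markers, at 237 CPM, and the 8 macrophage and lymphocyte markers, at 120 CPM, were also within the others. Tubular injury markers were an exception, at 895 CPM against 777 to 885 CPM. No marker of these lists was at 0 in all libraries. The part of cell composition, RNA quality or single mice of the pool in the high values of Control replicate 3 was not tested.

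Between the groups, the 10 pathway lists held 113 genes, of which 108 were tested. Of these, edgeR called 0 higher and 4 lower in KSPAPN after adjustment, or 3.70%, beside 2.65% of all genes tested. DESeq2 gave a p-value for 112 of the 113 and called 1 higher and 10 lower, or 9.82%. That stood beside 6.52% of the 14165 genes to which it gave an adjusted p. At an unadjusted p under 0.05 in edgeR, 6 of the 108 were higher and 18 lower, or 22.2%, beside 18.7%. Pooled over the lists, the shares were thus near those over all genes, while single lists differed. Of the 11 serine, one-carbon, proline and related enzymes, edgeR called 3 lower, beside 2.25% of all genes tested. Of the 10 mitochondrial relay and chaperone genes, 6 were lower at an unadjusted p under 0.05, beside 11.2%. Of the 12 aminoacyl-tRNA synthetases, 0 were past either threshold.

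**Figure D4:**
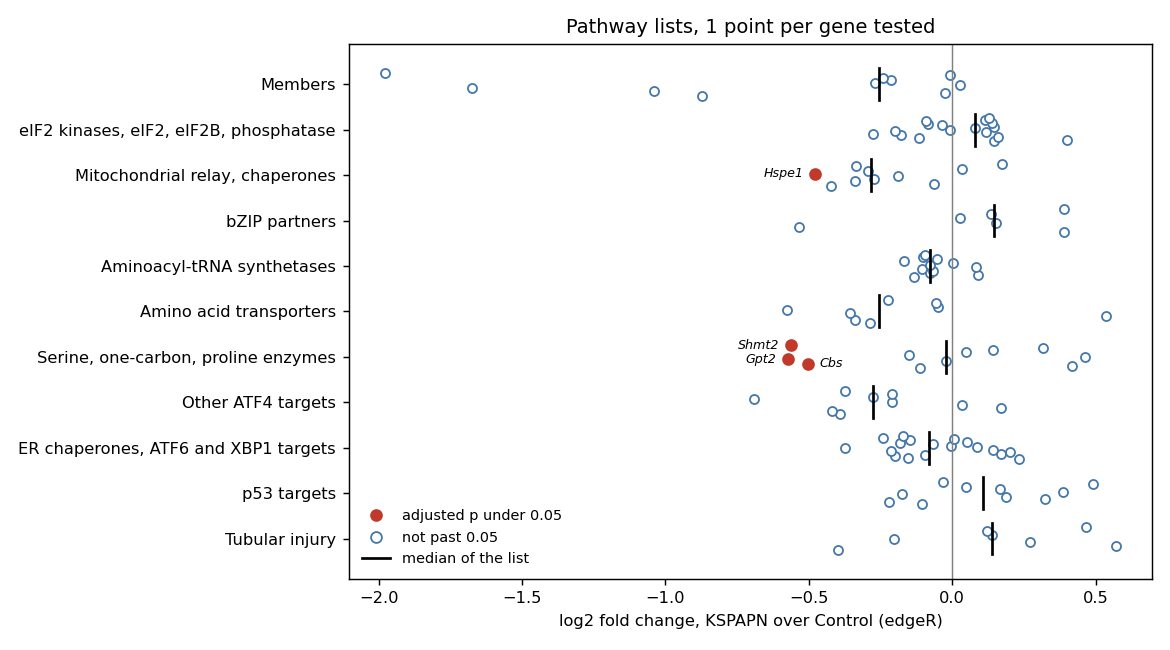
Log2 fold change of KSPAPN over Control (horizontal axis, edgeR) for each tested gene of the 10 target genes (Members) and of 10 pathway lists, 1 point per gene, with the median of each list as a bar. Filled points are the 4 genes called at an adjusted p under 0.05, *Hspe1*, *Shmt2*, *Gpt2* and *Cbs*, all lower in KSPAPN. The members spread further than any other list, between -1.98 and 0.03, in this fit on all 6 libraries. Without Control replicate 3 they ran from -0.41 (*Chac1*) to 0.47 (*Asns*).

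Of the 4 genes called lower, *Shmt2*, *Gpt2* and *Cbs* came from the list of serine, one-carbon, proline and related enzymes. *Hspe1* came from the mitochondrial list. Their roles therefore follow from the lists that were read. *Shmt2*, which starts one-carbon metabolism from serine in mitochondria, was at 101, 104 and 85.6 FPKM in Control and at 66.9, 70.8 and 58.2 FPKM in KSPAPN (log2 fold change -0.56, SE 0.11, adjusted p = 0.0274 from edgeR). *Gpt2*, the mitochondrial alanine aminotransferase, was at 11.3, 9.79 and 8.82 FPKM in Control and at 7.14, 6.74 and 6.10 FPKM in KSPAPN (log2 fold change -0.57, SE 0.11, adjusted p = 0.0293 from edgeR). *Cbs*, which starts the conversion of homocysteine to cysteine, was at 85.3, 73.2 and 69.7 FPKM in Control and at 48.7, 60.3 and 51.6 FPKM in KSPAPN (log2 fold change -0.50, SE 0.11, adjusted p = 0.0425 from edgeR). In each the groups did not overlap, and unlike *Trib3* or *Asns* the Control with the highest level was replicate 1 or 2.

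*Hspe1*, the co-chaperonin of the mitochondrial matrix, was at 117, 101 and 91.6 FPKM in Control and at 75.3, 71.7 and 73.8 FPKM in KSPAPN (log2 fold change -0.48, SE 0.10, adjusted p = 0.0395 from edgeR). It belongs to a list of 10 genes that relay mitochondrial stress or serve as mitochondrial chaperones and proteases, of which 6 were lower at an unadjusted p under 0.05, beside 11.2% of all genes. The other 5 were *Hspa9*, *Lonp1*, *Clpp*, *Trap1* and *Dnaja3*, with adjusted p between 0.0697 and 0.240. *Oma1* and *Dele1*, the protease and the messenger that carry the signal out of mitochondria, were at 0.03 and -0.07 on the log2 scale. Without Control replicate 3, *Hspe1*, *Shmt2* and *Gpt2* were still called lower, at -0.55, -0.64 and -0.65 on the log2 scale, and *Cbs* was at -0.56 (adjusted p = 0.0701). None of the 4 was called without Control replicate 1, without Control replicate 2 or without KSPAPN replicate 3, with adjusted p from 0.0736 to 0.196. Without KSPAPN replicate 2, *Hspe1* and *Gpt2* missed the threshold (adjusted p = 0.0992 and 0.0630 from edgeR), and without KSPAPN replicate 1 *Cbs* did (adjusted p = 0.0555 from edgeR). With the correction for GC content and length, *Gpt2* and *Cbs* were called and *Hspe1* and *Shmt2* were not, and with total counts only or limma none of the 4 was.

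Proximal tubule markers moved in the same direction as these 4 genes. Of the 12 markers 10 had a log2 fold change below 0, with a median of -0.28, and 2 were called lower, *Slc22a6* and *Slc7a13*. They summed to between 21211 and 24526 CPM in Control and to between 18845 and 20875 CPM in KSPAPN. Of the other markers, *Slc12a1* of the thick ascending limb was called higher, and *Ttr* and *Cyp2e1*, from the hepatocyte list, were called lower. Their lists went both ways. Of the 12 distal nephron markers 7 were above 0 and 5 below, with a median of 0.08. At an unadjusted p under 0.05 in edgeR, 1 of these 12 was higher and 3 were lower. Of the 5 hepatocyte markers tested 2 were above 0 and 3 below, with a median of -0.12. The part of cell composition in the lower values of *Shmt2*, *Gpt2*, *Cbs* and *Hspe1* was not tested.

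The remaining genes past an unadjusted p under 0.05 went both ways, and none of them passed the adjusted threshold in edgeR. *Eif2ak2*, the eIF2alpha kinase that senses double-stranded RNA, had a log2 fold change of 0.40 (adjusted p = 0.161 from edgeR), and the other 3 kinases, *Eif2ak1*, *Eif2ak3* and *Eif2ak4*, were between -0.12 and 0.16. *Slc38a2*, an amino acid transporter, was at 7.22, 8.83 and 9.69 FPKM in Control and at 14.2, 11.2 and 11.8 FPKM in KSPAPN (log2 fold change 0.54, adjusted p = 0.0620 from edgeR, and called by DESeq2 with an adjusted p of 0.00499). *Slc3a2* and *Slc6a9*, 2 further transporters, were at -0.36 and -0.58. Of the 8 transporters tested, 7 had a log2 fold change below 0 and *Slc38a2* was the 1 above, with a median of -0.26. *Nupr1* was at 0.39 among the partner or related factors, and *Atf6* at 0.23, *Herpud1* at -0.37 and *Edem1* at -0.21 among the ER genes. Of the p53 targets, *Btg2* and *Trp53inp1* were at 0.32 and 0.49, and *Sesn2* and *Gdf15*, which p53 raises too, were at -0.01 and -0.27. *Clu* was at -0.40 among the injury markers, *Eif2b2* at -0.28, and *Vldlr*, *Sqstm1* and *Vegfa* at -0.38, -0.21 and -0.21.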

How the data were processed

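Whole kidney mRNA of 6 libraries was selected on oligo(dT) and sequenced by a service provider. The authors deposited raw read counts and FPKM per gene. The submitters' processing notes name STAR 2.5, HTSeq 0.6.1, TopHat, DESeq2 and edgeR. For the genome build, annotation, strandedness and the total behind FPKM, the sources used here give nothing. Of 54532 identifiers 54495 matched GENCODE M21 (GRCm38). Of the 2 identifiers of *Ddit3*, the one with the longer transcript was used.

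Groups were compared by a two-sided quasi-likelihood test in edgeR 4.0.16 (R 4.3.3) with TMM factors. Genes had to reach edgeR's minimum count of 10 and minimum total of 15, which 16017 did, and p-values were adjusted over these by Benjamini-Hochberg. SE was the log2 fold change divided by the square root of F. Ratios of 2 libraries carry exact 95% binomial intervals, which leave out all but counting error. Fits without Control replicate 3 on the same 16017 genes were added after seeing the data. Alternatives were DESeq2 1.42.0, limma 3.58.1 on log2 FPKM, other scalings, no filter, a correction for GC content and length, the replicate number as a block, and each library left out. The code was tested on simulated counts. Genes outside the 10 are named where they passed an adjusted or unadjusted p under 0.05 in a list, or as said. The 10 genes and the lists were chosen with earlier results of these data known.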

Additional observations from a re-analysis of the deposited data

How the results depend on the processing

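The number of the 10 genes called at an adjusted p under 0.05 was 0 in edgeR and in every alternative except that without the filter on low counts, where it was 4 (*Atf5*, *Asns*, *Trib3* and *Chac1*, all lower). That alternative fits 29418 genes in place of 16017, the added ones being those under the filter. It was not run without Control replicate 3, in which these 4 genes were highest. The number at an unadjusted p under 0.05, 2 in edgeR, was 1 with DESeq2, 4 without the filter, 0 with total counts only, with limma at either pseudocount and with the correction for GC content and length, 2 with the replicate block (*Trib3* and *Psat1* in place of *Atf5* and *Chac1*), and 0 to 5 when a library was left out. The median log2 fold change of the 10 stayed below 0, from -0.26 to -0.11 in the other alternatives and from -0.47 to -0.05 when a library was left out, the value nearest to 0 being that without Control replicate 3. Calls over all genes, 424 in edgeR, were 923 with DESeq2, 266 with total counts only, 1339 without the filter, 128 and 119 with limma at pseudocounts of 1 and 0.1, 929 with the replicate block, and from 39 (without Control replicate 1) to 733 (without KSPAPN replicate 1) when a library was left out. Of the calls, 14.9% were higher in edgeR, 26.7% with total counts only, where the median of all genes was 0.081, and 25.0% with the correction for GC content and length. Calls in the pathway lists, 4 in edgeR, were 11 with DESeq2, 0 with total counts only, 16 without the filter, 0 with limma at either pseudocount, 3 with the correction for GC content and length (*Cbs*, *Gpt2* and *Vldlr*, without *Hspe1* and *Shmt2*), 9 with the replicate block and 0 to 5 when a library was left out. These alternatives for the pathway lists and for *Adipoq* were added after seeing the data.

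Of 150 alternative values of single genes 14 changed sign. With total counts only, *Atf4* was at 0.044 and *Sesn2* at 0.066. With the correction for GC content and length they were at 0.13 and 0.10. With each library left out, *Atf4* ranged from -0.13 to 0.11, *Sesn2* from -0.11 to 0.066, *Ddit3* from -0.11 to 0.17, *Asns* from -1.30 to 0.47, *Trib3* from -2.51 to 0.24 and *Phgdh* from -0.49 to 0.43. For *Asns*, *Trib3* and *Phgdh* the sign changed only without Control replicate 3.

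Whether replicate numbers pair the libraries was not settled. Deviations from the group mean correlated at 0.054, 0.154 and 0.173 between libraries of the same number. Between libraries of different numbers they correlated at -0.18 to 0.021, so each library correlated best with its own number, though weakly. With 6 to 22 reads on *Trib3* and 6 to 33 on *Chac1* outside Control replicate 3, and 3 libraries per group, the 95% intervals of their group differences were the widest of the 10 genes.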
